A study of Mus musculus with 12 samples.

Results

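Sncg and Sncb, the genes of gamma-synuclein and beta-synuclein, were followed in cultured mouse adipocytes of 3 PPARγ genotypes. They are 2 of the 55573 genes in the count table. The pair was chosen on the readout: Sncg had one of the largest rises in TD adipocytes over TA adipocytes, and Sncb was added as its family relative. The difference between TD and TA is therefore given for Sncg as a description, with no test.

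The cells were grown from the SVF (stromal vascular fraction, the cells of fat other than adipocytes) of subcutaneous fat of C57BL/6 mice, induced to become adipocytes and harvested on day 8. WT cells carried the unchanged receptor. The paper names WT littermates as controls but does not say which mutant line they came from. TA (T166A) carried alanine and TD (T166D) aspartate in place of threonine 166 of PPARγ, and the mice were made to mimic a receptor that cannot be phosphorylated or is permanently phosphorylated at that residue. Mutant mice were homozygous, made by CRISPR-Cas9, and carried the change in every cell of the body, so precursors and any other cells in the dish had it too. TA and TD were separate strains, so differences of strain and of residue 166 cannot be told apart. All cultures received the same cocktail of insulin, triiodothyronine, IBMX, dexamethasone and indomethacin, and after 4 days insulin and triiodothyronine alone. Each genotype had 4 libraries. The labels do not say whether libraries came from separate animals or cultures, so p-values measure the spread between these libraries, which may be technical.

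Synucleins are small, soluble proteins that bind curved membranes and acidic lipids. The beta form is found mainly in the presynaptic endings of central neurons. The gamma form is abundant in peripheral sensory and sympathetic neurons and is also made by white adipocytes, where it is known for accompanying leptin and for its ties to lipid storage and to the SNARE proteins that fuse membranes. PPARγ is the nuclear receptor that drives adipocyte differentiation.

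Sncg (ENSMUSG00000023064) lies on the minus strand of GRCm38 at chr14:34370274-34374789. GENCODE M21 gives it 1 transcript of 5 exons, with 852 bases of exon. Sncb (ENSMUSG00000034891) lies on the minus strand at chr13:54758860-54766595 and has 4 transcripts that together cover 2145 bases of exon. No annotated gene overlaps either of them. Their coding starts are shown because reads of close relatives could be mistaken for each other. The first 121 coding bases, in exon 1 of Sncg (chr14:34374460-34374580) and exon 2 of Sncb (chr13:54765563-54765683), were taken from the GENCODE transcripts and are printed 5′ to 3′ from the start codon, with the bases that differ between the genes in capitals.
Sncg: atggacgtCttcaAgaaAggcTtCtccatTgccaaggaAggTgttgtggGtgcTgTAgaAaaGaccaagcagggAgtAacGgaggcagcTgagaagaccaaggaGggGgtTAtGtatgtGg
Sncb: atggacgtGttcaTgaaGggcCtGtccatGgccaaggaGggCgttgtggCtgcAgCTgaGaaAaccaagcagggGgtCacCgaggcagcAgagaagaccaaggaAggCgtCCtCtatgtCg
Of these 121 bases, 97 were identical (80.2%) and 24 differed. The longest exact run shared by the Sncg transcript and the longest Sncb transcript was 16 bases. None of the 823 words of 30 bases in the Sncg transcript occurred, on either strand, in an annotated transcript of another gene.

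Depth ran from 16553324 to 20324286 counts per library. Levels are given as CPM, the read count scaled to a common library size after TMM normalization, and fold changes as log2 values from 1 edgeR quasi-likelihood fit to all 12 libraries, in which a gene passed the test at an adjusted p under 0.05. The filter on low counts left 15117 genes, Sncg among them and Sncb not. Pparg itself was at 354 CPM in WT, 374 in TA and 237 in TD, and was lower in TD than in WT (log2 -0.58, adjusted p = 0.00043). Gene counts cannot show the substituted residue, so they give no check of the genotype labels.

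Sncg was high in WT and TD adipocytes and low in TA adipocytes. Its level was 24.2, 30.4, 22.9 and 28.1 CPM in the WT libraries. It was 4.09, 5.84, 4.95 and 5.67 CPM in the TA libraries. In the TD libraries it was 35.0, 36.6, 25.3 and 21.4 CPM. The highest TA library was below the lowest WT and the lowest TD library, whereas the WT and TD ranges overlapped. These levels rest on 462 to 613 reads per WT library, 70 to 102 per TA library and 365 to 679 per TD library, so counting error was far smaller than the difference between TA and the other genotypes. The means were 26.4 ± 3.48 CPM in WT, 5.14 ± 0.796 in TA and 29.6 ± 7.40 in TD (SD, n = 4 each), and TD was the most variable, with a coefficient of variation of 25.0% against 13.2% in WT and 15.5% in TA. TD replicates 1 and 2 were above every WT library, and TD replicate 4 was below every WT library.

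**Figure D1:**
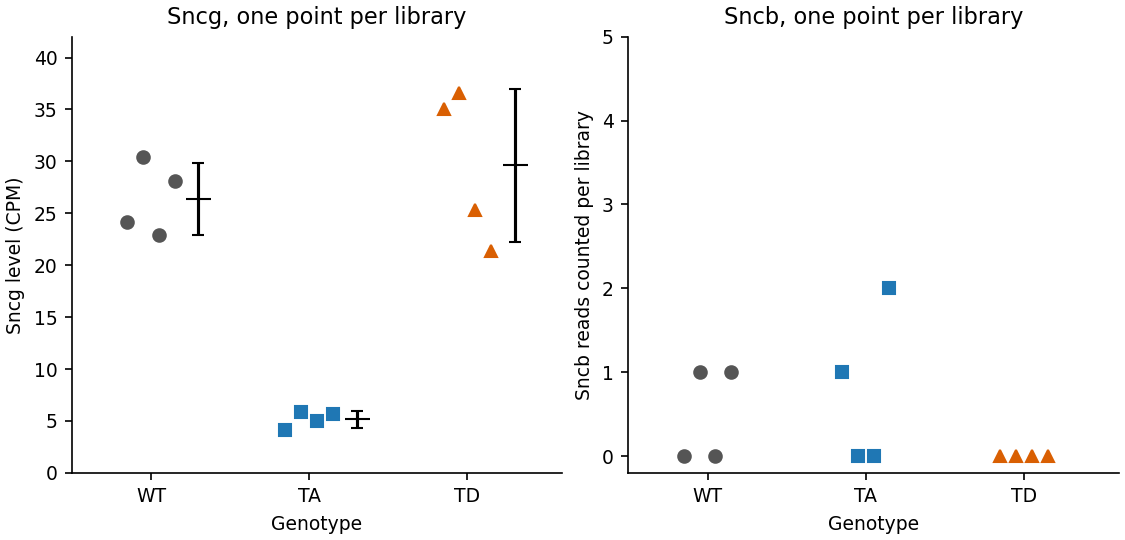
Left, Sncg level in CPM by genotype, 1 point per library, with the mean and SD beside the points; right, the number of reads counted for Sncb in each library. The 4 TA libraries lie between 4.09 and 5.84 CPM for Sncg, below all WT and TD libraries, and no library has more than 2 Sncb reads.

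Sncg was 0.195 times the WT level in TA (log2 -2.36, SE 0.18, 95% interval -2.73 to -1.99), and edgeR's adjusted p was 3.41e-07. Lower calls made up 4.41% of all genes tested in TA against WT, and 5.85% of genes were lower in every TA library than in every WT library. Among the 493 genes that passed the test as lower in TA, did not overlap and reached 5 CPM, Sncg had the rank 4 by size of fall. In TD against WT the fold was 1.12 (log2 0.16, SE 0.16, interval -0.16 to 0.49) and edgeR's adjusted p was 0.458, so a difference between TD and WT was not shown. Both comparisons use mutant libraries that also chose the gene, so their p-values are not independent of that choice. In the contrast that chose it, Sncg was 5.75 times higher in TD than in TA (log2 2.52) without overlap, where 9.32% of all genes were higher and 10.6% lower without overlap. Sncg had the largest rise among the 755 genes higher in TD under the same criteria, and in that ranking the genes at ranks 2, 3 and 4 had log2 values of 2.19, 1.88 and 1.85. The choice favours a large rise without overlap, so these values and the rank restate it. The order of levels was thus TD, WT and TA, with TD and WT not separated beyond their spread. In bulk RNA, fewer cells with the transcript and less transcript per cell cannot be told apart.

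Scaled by exon length, to allow comparison between genes, Sncg was at 31.0 ± 4.08 CPM per kb in WT, 6.03 ± 0.934 in TA and 34.7 ± 8.69 in TD. Of 15116 tested genes with a known length, 90.6% had a lower mean level per kb in WT, 60.8% in TA and 92.4% in TD. Sncg thus stood among the more abundant transcripts of WT and TD adipocytes and near the middle of the expressed genes in TA adipocytes.

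Sncb was close to absent. Its WT libraries had 0, 1, 0 and 1 reads, its TA libraries 1, 0, 0 and 2, and its TD libraries 0 reads each, 5 reads in all. A count of 0 allows up to 3 reads, which is 0.149 to 0.184 CPM in these libraries, and such limits cover counting error only. The filter removed Sncb, so no fold change between genotypes and no test is given. Per unit of exon length Sncg exceeded Sncb 2580-fold in WT (exact 95% counting interval 715 to 21400) and 299-fold in TA (101 to 1460). In TD it was at least 1790-fold higher, with Sncb set at 3 reads over the group. The exon length used for Sncb includes transcripts with retained introns. A shorter length would lower these ratios, which the counting interval does not cover.

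Leptin, the adipocyte hormone that signals the size of fat stores, was likewise lower in TA than in WT, by a smaller fold than Sncg. Lep was at 131, 139, 117 and 120 CPM in WT, 57.9, 78.5, 52.8 and 66.1 in TA, and 119, 115, 105 and 83.0 in TD. The TA libraries were again below all others, and WT and TD overlapped. Lep was 0.503 times the WT level in TA (log2 -0.99, SE 0.12, edgeR adjusted p = 6.37e-05) and 1.65 times higher in TD than in TA (log2 0.72, SE 0.12, edgeR adjusted p = 0.00095). Against WT, TD had a log2 value of -0.27 with an edgeR adjusted p of 0.105. Over the 12 libraries the log2 levels of Lep and Sncg had a Pearson r of 0.916, which ranked 14 among 13531 genes, and after the genotype means were removed r was 0.776. The TA libraries form a cluster of their own in both genes, and all values of a library share its depth, so r is a description. Within TD, replicate 4 was the lowest library for both genes.

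**Figure D2:**
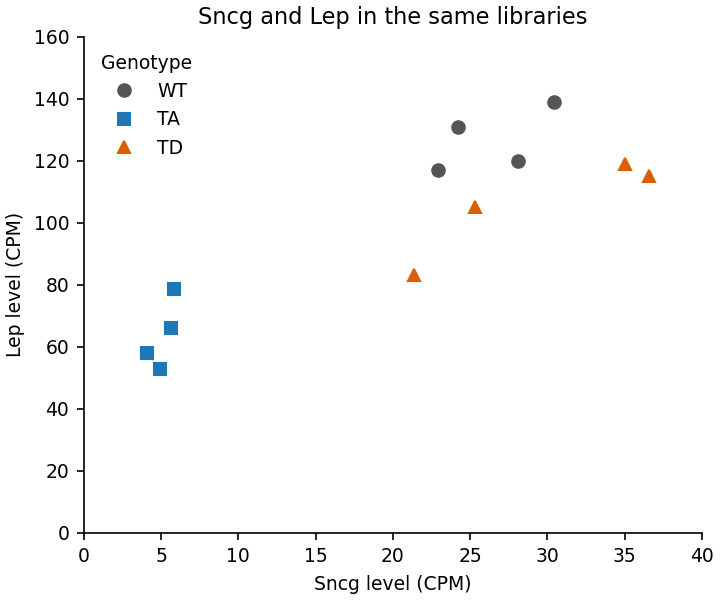
Level of Lep against level of Sncg, both in CPM on linear axes, 1 point per library, by genotype. The 4 TA libraries sit apart at the low end of both axes, and the WT and TD points overlap along the Sncg axis.

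The genes whose log2 level followed that of Sncg most closely over the 12 libraries were Eepd1, Palm, Lgals12, Cavin3, Mettl7b, Dtx2, Glb1l2, Capn2, Ccn1 and Car3, with Pearson r from 0.967 down to 0.930 against a median of 0.0162 over the 13531 genes compared. They were picked for this likeness, so their values are given with no test. Lgals12, a galectin of lipid droplets, was at 101 CPM in WT, 53.8 in TA and 90.0 in TD. Palm, a lipid-anchored protein of the inner face of the plasma membrane, was at 68.8, 35.5 and 64.3 CPM. Cavin3, a coat protein of caveolae, was at 133, 88.4 and 129 CPM, and Car3, the carbonic anhydrase abundant in adipocytes, at 4010, 2190 and 5300 CPM. Ccn1, a matrix-associated growth regulator, was at 129, 66.7 and 135 CPM. All of the 10 were lower in every TA library than in every WT and TD library, as Sncg was. Picking them for likeness favoured this separation in advance. Of all genes tested, 5.85% were lower without overlap in TA against WT, and 9.32% were higher without overlap in TD against TA. None of the 10 fell to so small a share of WT as Sncg: Mettl7b came nearest, at 0.273 of WT, and Capn2 and Dtx2 kept 0.794 and 0.804. Their deviations from the genotype means had a positive r with those of Sncg for 9 of the 10, the exception being Mettl7b. The median of this r over the genes compared was 0.000695. Picking the 10 on the same libraries favours a positive r, so this count is no separate support.

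The most opposite patterns were those of Cyp51, AA914427, Sorl1, Slc27a1 and Nabp1, with r from -0.973 to -0.963. Cyp51, a demethylase of cholesterol synthesis, was at 1100 CPM in WT, 2130 in TA and 937 in TD. Slc27a1, a fatty acid transport protein, was at 296, 827 and 338 CPM, and the sorting receptor Sorl1 at 114, 206 and 118 CPM. AA914427 had the largest fold of the 5, from 1.99 CPM in WT and 2.76 in TD to 28.1 in TA.

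Most adipocyte genes did not share the pattern of Sncg. Of the 17 genes in the adipocyte list, edgeR called 14 lower in TD than in WT (14.2% of all genes tested). DESeq2 called 15 lower, and 17 were lower at an unadjusted p under 0.05. edgeR called 0 higher, as did DESeq2, with 0 also at an unadjusted p under 0.05 (15.1% of all genes). Those that edgeR called lower were Adipoq, Plin1, Plin4, Fabp4, Cidec, Lpl, Pnpla2, Lipe, Pparg, Cebpa, Cfd, Slc2a4, Cd36 and Dgat2, from -0.28 for the hormone adiponectin (Adipoq) to -0.97 for the lipid droplet protein Cidec. The median log2 value of the list was -0.45, against 0.01 over all genes tested. Sncg, with 0.16 in that comparison, lay outside the range of the list in TD over WT, where the highest member was Lep at -0.27.

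In TA against WT the same list divided differently. Acsl1, which activates fatty acids, rose by 0.64 on the log2 scale, Cidec by 0.50 and Dgat2, which completes triglyceride synthesis, by 0.38, and of the falls edgeR called that of Lep alone, whereas DESeq2 called 3 and 3 had an unadjusted p under 0.05. The background was 6.72% of genes higher and 4.41% lower. The 3 rises became 1 without WT replicate 2, WT replicate 3, TA replicate 1 or TA replicate 2, and the falls were 2 without WT replicate 3 or TA replicate 4. In TD against TA, 12 of the 17 were lower (9.37% of all genes), namely Adipoq, Plin1, Fabp4, Cidec, Retn, Pnpla2, Lipe, Pparg, Slc2a4, Cd36, Dgat2 and Acsl1, and Lep was the member that rose (7.33% of all genes). Lep was thus the member of the list that went with Sncg in both comparisons that involve TA.

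**Figure D3:**
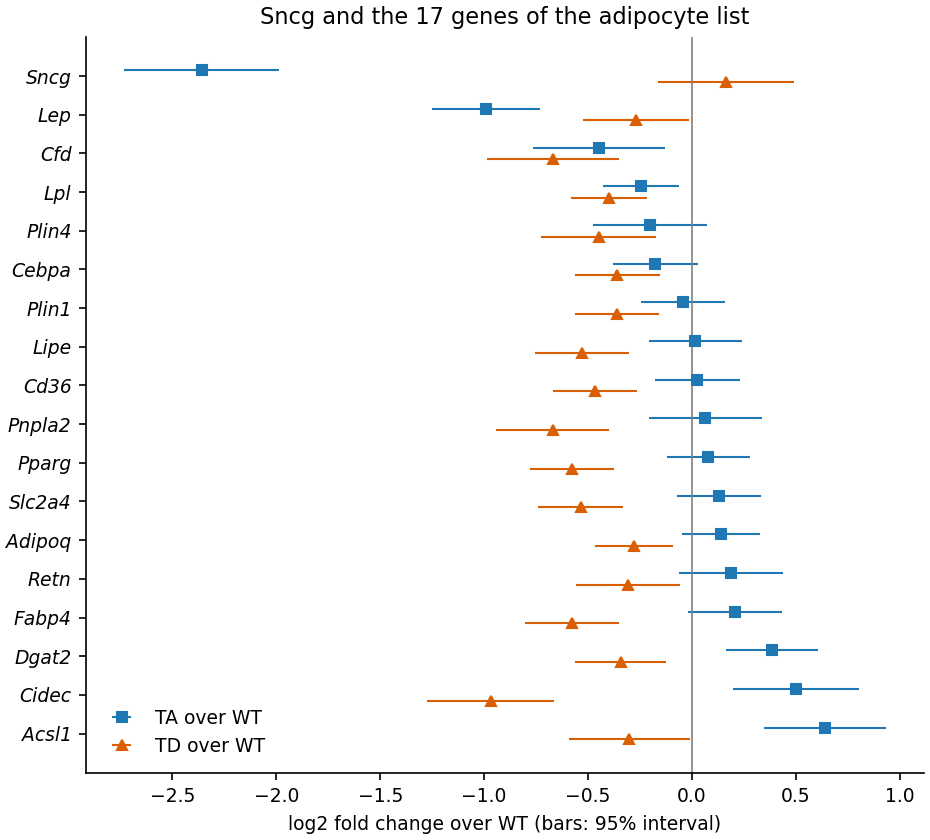
log2 fold change over WT of Sncg and of the 17 adipocyte genes, with squares for TA, triangles for TD and bars for 95% intervals. Sncg has the lowest TA value, at -2.36, followed by Lep at -0.99, and the TD values of the listed genes are all below 0 while that of Sncg is 0.16.

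Genes of the SNARE and vesicle fusion machinery, on which synucleins are known to act, mostly did not pass the test. Of 30 tested, 4 rose and 5 fell in TD against WT, 1 rose and 1 fell in TA against WT, and 1 rose and 2 fell in TD against TA. Of all genes tested, 15.1% rose and 14.2% fell in TD against WT, and 6.72% and 4.41% in TA against WT. In TD against TA the shares were 7.33% and 9.37%. The counts of the list lie near or below these shares. The largest rise in TD was that of the plasma membrane syntaxin Stx1a (log2 1.05, from 1.68 to 3.47 CPM), and the largest fall that of the syntaxin-binding protein Stxbp2 (-0.47). In TA, Stx2 rose by 0.46 and Stx18, a syntaxin of the endoplasmic reticulum, fell by 0.31 on the log2 scale. Between TD and TA the calls with the largest changes were Stxbp3 (0.32) and Snap29 (-0.26). The 5 falls in TD against WT were 1 to 3 without WT replicate 1, WT replicate 4 or TD replicates 2, 3 or 4, the Stx18 call in TA was lost without WT replicate 1, WT replicate 4, TA replicate 1 or TA replicate 3, and the 3 calls between TD and TA were each lost without TA replicate 2, TD replicate 1 or TD replicate 4. With library totals alone the 5 falls were 2.

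Kinases, binding partners and proteases of synucleins formed a list of 26 genes, all tested. In TA against WT 3 were lower (4.41% of all genes tested): Plk3, a polo-like kinase (log2 -1.15, edgeR adjusted p = 0.00016), Pld1, a phospholipase D (-0.44), and Capn2, the calpain protease that is also among the genes most like Sncg (-0.33). edgeR called 0 of the list higher in TA (6.72% of all genes), with 2 at an unadjusted p under 0.05, and DESeq2 called 1. Pld1 and Capn2 were the 2 members higher in TD than in TA, at log2 0.41 and 0.28, and 2 members were lower, the largest fall being that of the receptor kinase Grk5 (-0.28), against 7.33% and 9.37% of all genes. The 2 rises were 5 without TA replicate 3 or without the filter, and the 2 falls were 1 without TA replicate 2, TD replicates 2, 3 or 4, without the filter or with library totals alone, and 4 by DESeq2. Plk3 was low in both mutants, with 19.9 CPM in WT, 8.99 in TA and 9.83 in TD. In TD against WT 2 of the list were higher, with the largest rise for the ubiquitin hydrolase Uchl1 (0.80), and 5 were lower, against 15.1% and 14.2% of all genes. Those 5 were 1 to 3 without any single WT or TD library, 2 with the replicate block, 1 with library totals alone and 3 without the filter, and the 2 rises were 1 without WT replicates 1 or 4 or TD replicates 2 or 4.

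Close to Sncg on the chromosome lies Mmrn2, the gene of multimerin 2, a matrix protein of blood vessels, which points the other way with 675 bases between the annotated starts. Mmrn2 was at 2.65, 2.18, 3.62 and 2.30 CPM in WT. It was at 5.97, 3.87, 4.34 and 5.17 CPM in TA, and at 7.27, 4.69, 6.44 and 6.74 CPM in TD. Every mutant library was above every WT library. Such separation was seen upward for 7.71% of genes in TA and 15.8% in TD, and downward for 16.4% in TD. The log2 value was 1.22 in TD over WT (edgeR adjusted p = 0.00054) and 0.85 in TA over WT (edgeR adjusted p = 0.015, and 0.73 with 0.056 without TA replicate 1). Between TD and TA it was 0.38, with an edgeR adjusted p of 0.214. The neighbours therefore parted in TA, where Mmrn2 rose and Sncg was low: the ratio of their CPM was 6.33 to 13.9 in WT, 0.686 to 1.51 in TA and 3.17 to 7.80 in TD. The endothelium list rose with Mmrn2, by 9 of 10 genes in TD (15.1% of all genes called higher) and 6 of 10 in TA (6.72%) against WT, and its part in the rise of Mmrn2 was not tested.

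The bases just upstream of Sncg, in the gap towards Mmrn2, are shown because the members' difference turns on this gene. They are the 130 bases before its annotated transcript, chr14:34374790-34374919 on the minus strand, from RefSeq on GRCm38.p6, in lower case throughout because no motif searched occurs in them.
Sncg upstream: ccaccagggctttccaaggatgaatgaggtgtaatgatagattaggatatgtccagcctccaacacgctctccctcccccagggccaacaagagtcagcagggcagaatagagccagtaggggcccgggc
Of these bases 56.9% are G or C. The RefSeq window of 300 bases around the start of each gene was searched on both strands for AGGTCA, the hexamer of nuclear receptors, for AGGTCANAGGTCA, the direct repeat bound by PPARγ with its partner, which contains the hexamer, for CCAAT and for TATAAA. Of 32817 windows, 16.3% held the hexamer, 0.0396% the repeat, 37.4% CCAAT and 13.6% TATAAA. The windows of Sncg and Lep held none of the 4, and that of Sncb held 1 CCAAT. For Sncg the window is chr14:34374620-34374919. The 130 bases printed are its part upstream of the GENCODE transcript, and the rest lies within exon 1. The absence of a match says only that these letters are not in the window.

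Of the 7 annotated genes within 100 kb of Sncg, 4 were tested. Glud1, the mitochondrial glutamate dehydrogenase, was at 1280 ± 43.7 CPM in WT, 1060 ± 157 in TA and 941 ± 38.2 in TD (SD, n = 4 each). It fell in TD against WT (log2 -0.44, edgeR adjusted p = 0.0024), while its TA value was -0.27 with an edgeR adjusted p of 0.078 (-0.36 and 0.0084 without TA replicate 2). DESeq2 and library totals alone gave -0.27 and -0.28, with adjusted p of 0.0302 and 0.0471. Between TD and TA it was -0.18 with an edgeR adjusted p of 0.214 (-0.26 and 0.034 without TA replicate 3). Shld2, of a DNA repair complex, and Bmpr1a, a BMP receptor, had log2 values of 0.00 and 0.06 in TA over WT and of -0.19 and 0.16 in TD over WT, and did not pass the test. Of the 8 genes within 100 kb of Sncb, 3 were tested. Faf2, Rnf44 and Tspan17 had log2 values between -0.24 and 0.10 over WT in the mutants and did not pass the test, apart from Tspan17 in TD without WT replicate 4 (-0.28, edgeR adjusted p = 0.047). The lowest of these 3 had 348 reads or more in every library, where Sncb had at most 2.

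**Figure D4:**
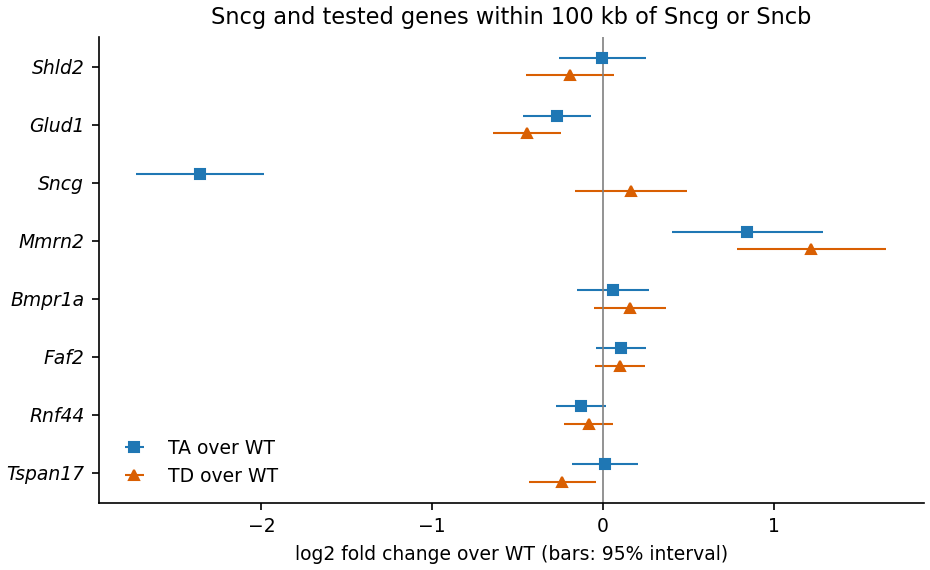
log2 fold change over WT of Sncg and of the 7 tested genes within 100 kb of Sncg or Sncb, with squares for TA, triangles for TD and bars for 95% intervals. Sncg in TA lies at -2.36, Mmrn2 lies above 0 in both mutants, at 0.85 and 1.22, and the others lie between -0.44 and 0.16.

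Sncg is also a gene of peripheral neurons, so markers of neurons and of other cells in the stromal vascular fraction were read beside it. The adipocyte list summed to 29200 to 32900 CPM in WT, 27900 to 36300 in TA and 20800 to 23200 in TD, and that of fibroblasts and preadipocytes, which holds abundant collagens, to 10800 to 14300, 12400 to 21900 and 18500 to 27000 CPM. Neuronal markers were near the floor: 6 of the 20 passed the filter, the defining genes Elavl3, Elavl4, Stmn3, Th and Dbh had at most 3 reads in every library, and the sum of all 20 was 10.3 to 14.4 CPM in WT, 11.0 to 21.1 in TA and 16 to 26 in TD. The sum of the whole neuronal list was thus below the level of Sncg alone in every WT library, and above it in every TA library. In TD its range overlapped that of Sncg, which was 21.4 to 36.6 CPM. These levels are not scaled by exon length, and the part of neurons in the level of Sncg was not tested. Of the 6 tested, 4 rose in TD against WT (15.1% of all genes tested), the largest rise being that of the growth-cone protein Gap43 (log2 1.70, from 1.05 to 3.47 CPM), and 1 or 2 rose without WT replicates 1, 2 or 4 or TD replicates 2 or 4. In TA against WT edgeR and DESeq2 called 0 of the 6, and at an unadjusted p under 0.05 there was 1, which was higher. Markers of Schwann cells, the glia of peripheral nerves, rose for 6 of 11 in TD against WT (15.1% of all genes), led by Ncam1 (1.20), and for 2 or 3 without WT replicates 1 or 4 or TD replicate 4.

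**Figure D5:**
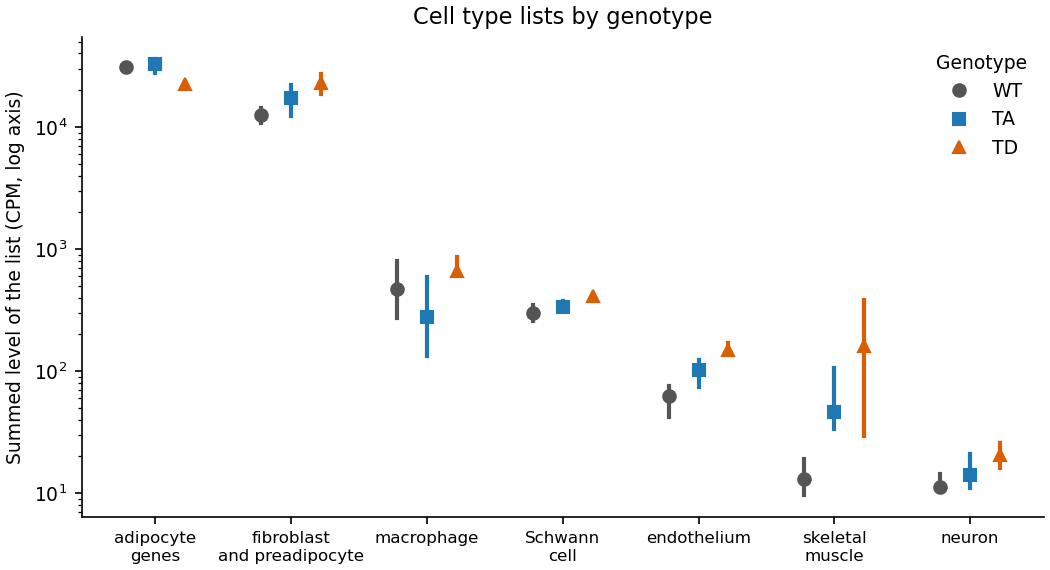
Summed CPM of the markers of 7 cell types on a log axis, with the lowest to highest library of each genotype as a line and the median as a point. Adipocyte markers have the highest median sum in WT and TA and fibroblast markers in TD, neuronal markers stay at 26.0 CPM or below, and the medians of 5 lists (fibroblast, Schwann cell, endothelium, muscle and neuron) are in the order WT, TA, TD.

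Markers of 3 other cell types were higher in both mutants than in WT, where 15.1% of all genes tested were called higher in TD and 6.72% in TA. Skeletal muscle markers rose for 16 of 16 in TD and 8 of 16 in TA, with medians of 4.43 and 2.59 on the log2 scale, and with 4 or 5 rises in TA without TA replicate 2 or any single WT library. Several had almost no WT reads, such as Myog at a mean of 0.0 CPM, Tnnc2 at 0.0372 and Ckm at 0.0649. Such genes passed the filter through the mutant libraries, so a rise over WT was favoured in advance. The medians rest in part on this WT floor, and the TD libraries spread widely, with summed levels from 29.5 to 386 CPM. With the 2 compared genotypes alone in the fit 10 rose in TD, and in the fit without the filter, which tests more genes, 16 rose in TA. Endothelium markers rose for 9 and 6 of 10, led in both mutants by the receptor Tie1, and those of fibroblasts and preadipocytes for 10 and 8 of 12, led by the progenitor markers Cd34 in TD (1.61) and Pi16 in TA (1.85). Macrophage markers summed to 273 to 803 CPM in WT, 133 to 585 in TA and 616 to 857 in TD. Of these 10, 3 were higher in TD than in TA (7.33% of all genes), led by Mrc1 (1.68), and the number was 0 to 8 as single libraries were left out, with 0 without TA replicates 1, 2 or 4 or TD replicate 1. Muscle, endothelium and fibroblast sums moved the same way in TA and TD, whereas Sncg was low in TA alone. Macrophage sums also had their lowest median in TA, but unlike Sncg their TA and WT ranges overlapped. Of the 10 macrophage markers edgeR called 0 in TA against WT (6.72% of all genes higher, 4.41% lower). At an unadjusted p under 0.05, 4 were lower, and edgeR called 5 lower without TA replicate 3. The part of these cell types in the level of Sncg was not tested.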

How the data were processed

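RNA-seq of 12 libraries, 4 per genotype, was used. Per the labels, the authors demultiplexed with bcl2fastq 2.17.1.14, trimmed with cutadapt 1.9.1, aligned to GRCm38 with HISAT2 2.0.1 and counted with HTSeq 0.6.1. They deposited raw read counts per gene for 55573 genes. The strand setting is not given in the sources used here. Genotypes came from the sample labels.

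Genes were kept by filterByExpr (minimum count 10, minimum total 15), libraries were scaled by TMM (factors 0.957 to 1.04), and edgeR 4.0.16 in R 4.3.3 fitted a quasi-likelihood model to all 12 libraries, with two-sided tests and Benjamini-Hochberg adjustment over 15117 genes. Alternatives, with DESeq2 1.42.0 among them, are in the closing section. The steps were tested on simulated data. log2 CPM used a prior count of 2.

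Genes, lists and tests were chosen with earlier results of these data known. The text names both synucleins, tested neighbours within 100 kb, the 10 genes most and 5 genes least correlated with Sncg (mean of at least 1 CPM), Lep, all called adipocyte genes and, of each other list, the largest called rises and falls. Some others were named after their values were seen. Positions and lengths came from GENCODE M21 and upstream sequence from RefSeq. Comparisons against WT share their WT libraries. Replicates of a genotype differed beyond sampling noise (chi-square per degree of freedom 4.89 to 37.7 over 18 pairs).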

Additional observations from a re-analysis of the deposited data

Results flagged for a closer look

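Among 99 sets of 4 libraries looked at, 4 held a library far from the rest of its genotype by Dixon's criterion, which chance gives in about 1 set in 20. All 4 concern TA libraries and genes picked for their likeness or opposition to Sncg. Eepd1 was at 26.3 CPM in its highest TA library and at 23.5 to 24.0 in the others. Palm was at 40.8 CPM in its highest TA library and at 33.5 to 34.1 in the others. Car3 was at 1740 CPM in its lowest TA library and at 2280 to 2380 in the others. Slc27a1 was at 919 CPM in its highest TA library and at 794 to 802 in the others. Neither Sncg nor Lep had such a library in any genotype.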

How the results depend on the processing

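In TA over WT and TD over WT, Sncg kept its direction and its side of the threshold in all alternatives run: DESeq2, its size factors in edgeR, library totals alone, no filter, only the 2 genotypes compared, the replicate block, and each library left out. Its log2 value ran from -2.43 to -2.27 in TA over WT, from 0.0451 (without TD replicate 2) to 0.291 (without TD replicate 4) in TD over WT, and, as a description, from 2.40 to 2.65 in TD over TA, the contrast that chose the gene. With the replicate block it was -2.35, 0.155 and 2.51. Libraries with the same number did not deviate together (correlations of their deviations -0.237 to 0.196), so the numbers were not taken as pairs, and the block moved no count of all called genes by over 1.5 times, though it moved some counts of list members. Sncb was removed by the filter and has no alternative values.

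The number of genes called between TD and TA was 2524, and 1422 to 3526 as single libraries were left out. It was 1422 without TA replicate 2, 1586 without TD replicate 3 and 1432 without TD replicate 4. With library totals alone, 64.6% of calls in TD against WT and 64.7% in TD against TA were higher in TD, against 51.5% and 43.9% with TMM, and the share in TD against TA was 54.3% without the filter. With library totals alone the median log2 value of all genes in TD against TA was 0.100, against 0.023 with TMM. Of the counts of called list members under all alternatives, 840 stayed within 1.5 times of the value given, 88 were lower and 44 higher.

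Values near 0 changed sign. Faf2 in TD over TA was -0.005, but 0.0735 with library totals alone, 0.0048 without the filter and -0.0374 to 0.0379 with single libraries left out. In TA over WT, leaving out single libraries gave -0.0874 to 0.0747 for Shld2, -0.0350 to 0.142 for Bmpr1a and -0.0324 to 0.0788 for Tspan17.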
